A study of Mus musculus with 4 samples.

Results

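The enzymes that lengthen fatty acids in the endoplasmic reticulum were followed across Snai1 knockout and control mouse embryonic stem (ES) cells. Of the 18193 genes represented by a probe set of their own on the array, 9 are described here: the elongases Elovl1 to Elovl7, the ketoacyl reductase Hsd17b12 and the enoyl reductase Tecr. They were selected on the pathway and on 1 measured value, the large difference of Tecr between knockout and control, so the values of this comparison are given as a description. Every probe set that the platform annotation ties to 1 of these genes alone was taken, which gave 23 probe sets, and 0 probe sets named a member together with another gene.

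The arrays were 4 single-colour Affymetrix mouse arrays, 2 of Snai1 knockout ES cells (titles KO.ES) and 2 of control ES cells (titles F/F.ES, genotype field control). Snai1 encodes Snail, a zinc finger repressor that binds E-box sequences. The labels do not say what F/F stands for, and the source name of the control samples also holds the words knock out, so the sign of every difference rests on titles and genotypes. All cells had been kept on feeder cells with leukaemia inhibitory factor and had received no further treatment. The replicates are labelled biological, with no word on what separated them, and errors therefore measure the spread between these arrays only. Whether the knockout comes from 1 clone is likewise not given.

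Fatty acids made in the cytosol or taken from the diet are lengthened by a membrane-bound cycle that adds carbons from malonyl-CoA in each turn. An ELOVL elongase condenses the acyl-CoA with malonyl-CoA, HSD17B12 reduces the resulting ketoacyl-CoA, a HACD dehydratase removes water, and TECR reduces the remaining double bond. The elongases differ in the chains they accept, whereas the other steps serve all chain lengths, and the products enter sphingolipids, phospholipids and waxes.

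Tecr rose in the knockout at both of its probe sets, by log2 differences of 2.29 and 1.56, that is 4.88-fold and 2.96-fold. No other enzyme of the cycle among the members moved on this scale. The 21 probe sets of the other 8 genes differed by between -0.63 and 0.56, with a median of -0.09. Of these 21, 15 had the lower mean in the knockout, beside 53.4% of all genes at their brightest probe set. The 21 include 5 probe sets with every array in the background range, of either sign. In limma's fit over all 45037 probe sets, 2 of the 23 member probe sets, both of Tecr, passed an adjusted p of 0.05, against 0.546% of all probe sets (198 higher and 48 lower). Counting 1 probe set per gene, the one with the highest mean, 1 of the 9 members passed against 0.500% of all genes. Since Tecr's own difference was the reason for the choice, nothing is read from these shares.

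**Figure D1:**
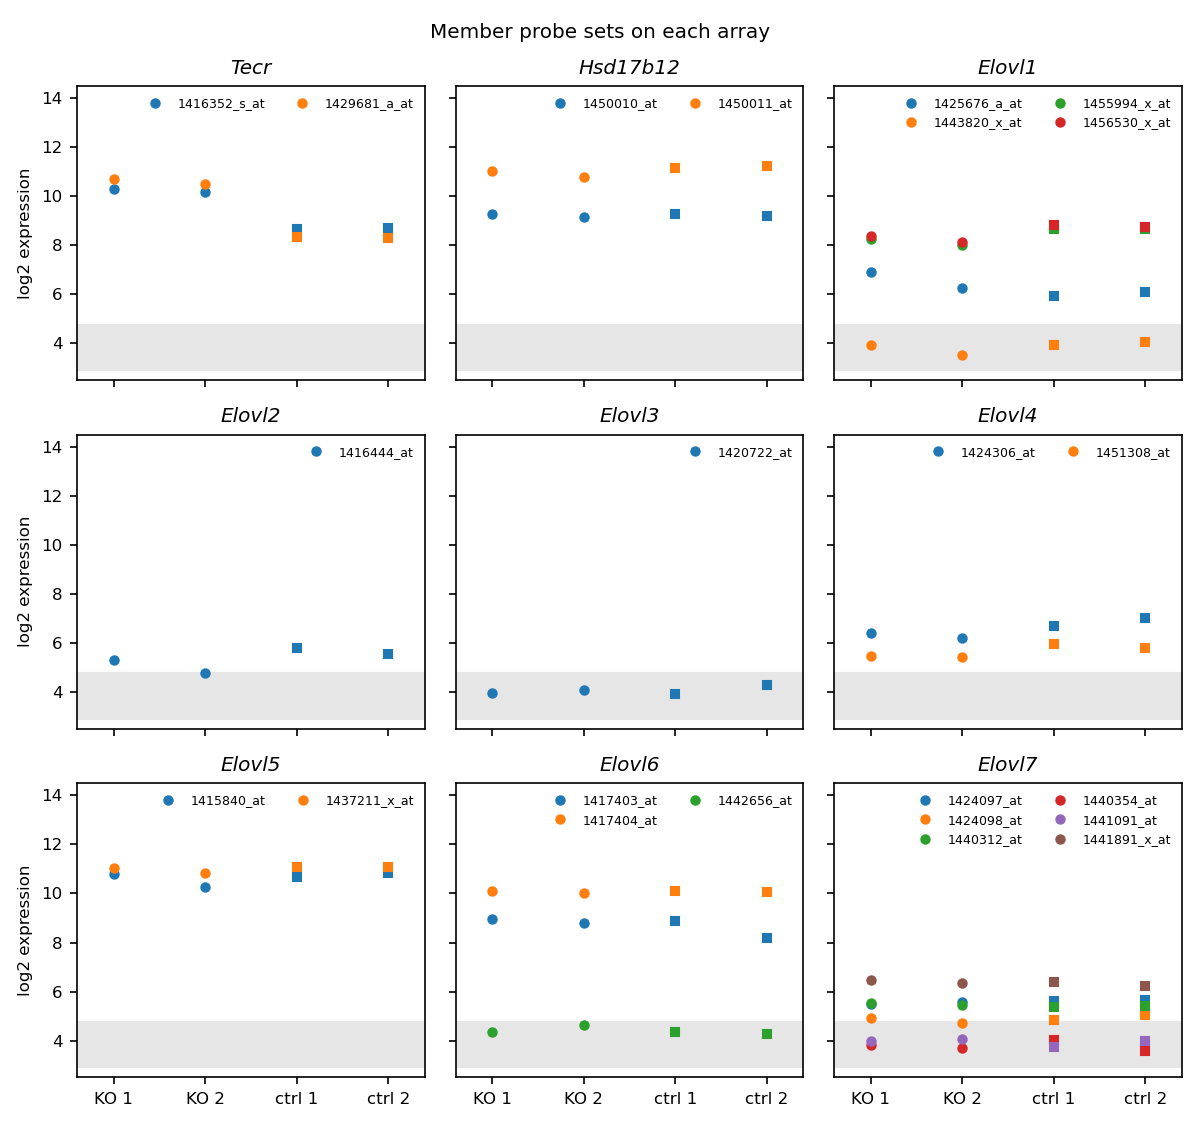
Log2 expression of the 23 member probe sets on each array, 1 panel per gene, with knockout arrays as circles on the left, control arrays as squares on the right, 1 colour per probe set, and in grey the background range (2.91 to 4.77), which is that of 24 Bacillus control probe sets. Both Tecr probe sets lie above 10 in the knockout and below 9 in the control, whereas the group means of every other probe set lie within 0.63 of each other.

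Tecr encodes the trans-2-enoyl-CoA reductase of the last step of the cycle. Its brightest probe set, 1429681_a_at, stood at 10.72 and 10.50 in the knockout arrays, against 8.34 and 8.31 in the control arrays (log2 expression). The knockout arrays were both high and the groups lay far apart, with a log2 difference of 2.29 ± 0.14 (SE) and a 95% interval of 1.95 to 2.62. The other probe set, 1416352_s_at, stood at 10.32 and 10.17 in the knockout, against 8.65 and 8.72 in the control. It too separated the groups, with a log2 difference of 1.56 ± 0.13 (SE) and an interval of 1.25 to 1.88. The suffixes mark probe sets that Affymetrix designed to match several transcripts, of the same gene (a) or possibly of different genes (s).

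The probe sets of Tecr did not move by the same amount. The log2 signal of 1429681_a_at exceeded that of 1416352_s_at by 0.40 and 0.33 in the knockout arrays, and fell short of it in the control arrays, where the gap was -0.31 and -0.41. The gap thus differed by 0.72 between the groups. The annotation names no exon or transcript end for either probe set, so the transcripts behind them were not told apart.

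The 3' to 5' signal balance of the control transcripts differed between the groups as well. For the control probe sets of Actb, the 3' minus 5' gap was 1.11 and 0.80 in the knockout arrays, against 3.02 and 2.97 in the control arrays, and for Gapdh it was 0.40 and 0.27 in the knockout, against 1.24 and 1.48 in the control. The groups were thus as clearly separated in these gaps as in Tecr, and the part of this in the Tecr difference was not tested. When the trend of each array with genomic gene span and level was removed, Tecr differed by 2.35 and 1.62, against 2.29 and 1.56 before. Genomic span is not the distance of probes from the 3' end, so this setting does not measure that part. Several other members moved under this setting by more than the standard error of their difference as deposited. The Hsd17b12 probe sets differed by -0.04 (1450011_at) and 0.18 (1450010_at), against -0.28 and -0.03 as deposited. The brightest Elovl5 and Elovl6 probe sets differed by 0.06 and 0.21, against -0.14 and -0.01, and the brighter pair of Elovl1 by -0.68 and -0.67, against -0.53 and -0.52. None of these passed the threshold under either setting. Tecr spans 22.8 kb of the genome.

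**Figure D2:**
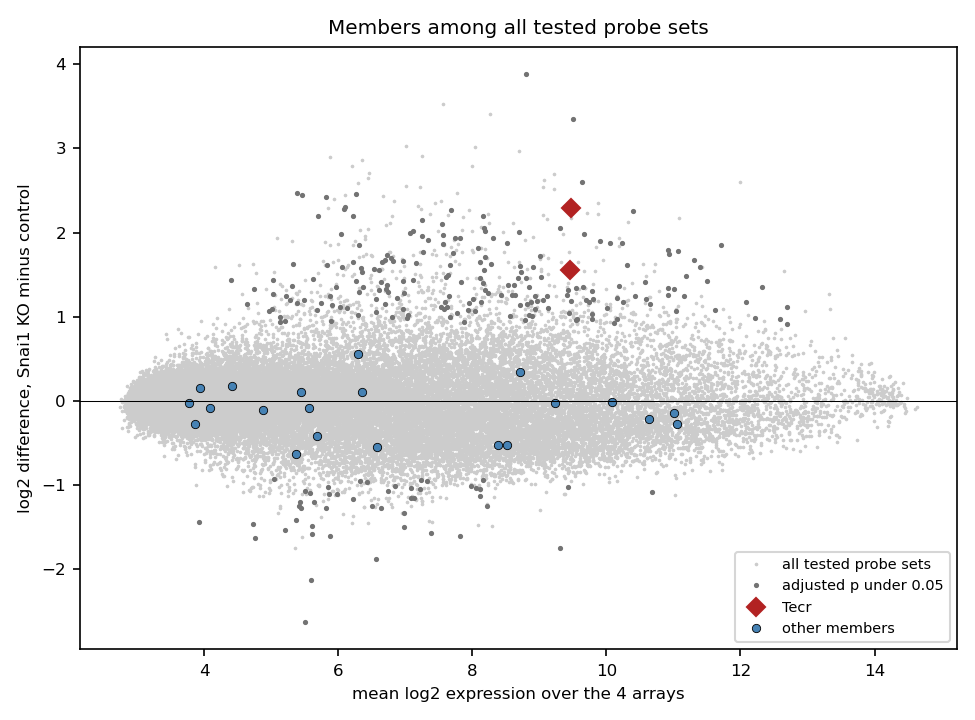
Log2 difference, knockout minus control, against mean log2 expression over the 4 arrays for all tested probe sets (light grey), those past an adjusted p of 0.05 (dark grey), Tecr (red diamonds) and the other members (blue circles). The Tecr probe sets lie at 2.29 and 1.56, and the other members between -0.63 and 0.56.

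The neighbours of Tecr on its chromosome were read as well. Of the 3 nearest protein-coding genes on each side of Tecr in RefSeq, chosen by position after its values were seen, 4 had a probe set of their own. Ndufb7, a subunit of respiratory complex I and the immediate neighbour on one side, stood at 11.64 and 11.61 in the knockout, against 11.74 and 11.64 in the control (log2 difference -0.07 ± 0.12, SE, limma adjusted p = 0.836). Dnajb1, a heat shock co-chaperone and the immediate neighbour on the other side, differed by -0.25 ± 0.15 (SE, adjusted p = 0.445). Beyond it lay Gipc1, a PDZ adaptor, at 7.48 and 7.21 in the knockout, against 6.18 and 6.72 in the control (0.90 ± 0.21, SE, adjusted p = 0.0927), and the remaining neighbour, Scoc, differed by -0.37 ± 0.15 (SE, adjusted p = 0.251). None of the 4 passed the threshold.

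The genes whose brightest probe sets followed Tecr most closely over the 4 arrays were Mdk, the growth factor midkine, Cox6b2, a cytochrome oxidase subunit, Mlf2, the RNA-binding protein gene Lsm2 and the phosphatase inhibitor gene Ppp1r11. Likeness was the root mean square difference of the 4 values after each gene was centred on its own mean, and it was 0.160 for Mdk and 0.225 for Ppp1r11. Mdk stood at 10.76 and 10.56 in the knockout, against 8.77 and 8.58 in the control. With 2 arrays per group, this likeness follows mainly from the knockout-control difference, the value on which Tecr was chosen. The differences of these 5 genes ran from 1.88 to 2.10, and nothing further is read from their likeness. These 5 genes share their arrays with Tecr and span between 1.30 and 4.76 kb, less than Tecr.

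The start of Tecr is shown because Snail represses genes through the E-box CAGGTG, so a reader may ask which members carry it. RefSeq promoters of 300 bases (250 before and 50 after the start, GRCm38.p6) were held for 8 of the 9 members, with 10 start sites between them, and Elovl3 had no entry. CAGGTG and CCAAT, the box bound by NF-Y, were searched on both strands, and no match of one overlapped the other. In the lines that follow, capitals mark CAGGTG, or CACCTG on the other strand, and CCAAT, or ATTGG on the other strand. The Tecr window lies at chr8:83594442-83594741 (minus strand), that of the second Elovl1 start at chr4:118429451-118429750 (plus strand), that of Elovl4 at chr9:83806256-83806555 (minus strand) and that of Elovl7 at chr13:108214154-108214453 (plus strand).
Tecr: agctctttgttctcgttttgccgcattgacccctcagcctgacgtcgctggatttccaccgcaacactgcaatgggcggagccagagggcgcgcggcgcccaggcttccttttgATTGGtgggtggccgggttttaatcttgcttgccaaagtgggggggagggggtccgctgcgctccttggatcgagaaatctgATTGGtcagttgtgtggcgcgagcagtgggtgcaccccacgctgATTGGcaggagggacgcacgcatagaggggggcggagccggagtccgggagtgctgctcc
Elovl1: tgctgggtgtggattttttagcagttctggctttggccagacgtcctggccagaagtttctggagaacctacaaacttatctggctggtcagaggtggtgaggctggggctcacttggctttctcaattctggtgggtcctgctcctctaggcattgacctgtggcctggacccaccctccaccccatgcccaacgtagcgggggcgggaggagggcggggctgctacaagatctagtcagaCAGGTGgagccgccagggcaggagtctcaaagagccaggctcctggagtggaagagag
Elovl4: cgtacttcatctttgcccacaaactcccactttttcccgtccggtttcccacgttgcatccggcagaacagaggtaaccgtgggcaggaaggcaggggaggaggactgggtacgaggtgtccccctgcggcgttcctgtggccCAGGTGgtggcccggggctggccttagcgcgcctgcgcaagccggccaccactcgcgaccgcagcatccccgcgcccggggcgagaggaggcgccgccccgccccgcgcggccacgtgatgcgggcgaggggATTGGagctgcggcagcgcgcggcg
Elovl7: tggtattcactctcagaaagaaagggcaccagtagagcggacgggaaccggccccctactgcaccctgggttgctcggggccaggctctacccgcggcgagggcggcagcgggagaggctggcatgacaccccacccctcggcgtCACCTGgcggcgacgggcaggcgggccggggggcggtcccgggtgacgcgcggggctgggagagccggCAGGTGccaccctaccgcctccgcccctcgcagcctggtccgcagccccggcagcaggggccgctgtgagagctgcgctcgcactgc

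The Tecr window held no CAGGTG and 3 copies of CCAAT, all on the other strand, which began 136, 54 and 10 bases before the start. Windows with 3 or more CCAAT matches made up 3.37% of the 32851 promoters. CAGGTG was found for 3 of the 8 members with a promoter: once at the second start of Elovl1, 8 bases before it, once for Elovl4, 107 bases before the start, and in 2 copies for Elovl7, 105 and 37 bases before. CCAAT was found for 5 of the 8. Of all 27025 genes with a promoter entry, 22.6% held CAGGTG and 41.1% held CCAAT in at least 1 window. Beside the matches, the log2 differences were -0.53 for the brightest Elovl1 probe set, -0.55 for that of Elovl4 and 0.10 for that of Elovl7. Another Elovl1 probe set, 1425676_a_at, differed by 0.56, so no direction is given for Elovl1. None of these passed the threshold. A match describes letters, not binding.

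The reductase of the other reductive step, Hsd17b12, had no call. HSD17B12 reduces ketoacyl-CoA in the elongation cycle and is needed for early mouse development. Its brighter probe set, 1450011_at, stood at 11.05 and 10.78 in the knockout, against 11.17 and 11.22 in the control, so the knockout arrays were slightly lower (log2 difference -0.28 ± 0.14, SE), a difference of -0.04 once the gene span trend was removed. The other, 1450010_at, stood at 9.27 and 9.16 in the knockout, against 9.30 and 9.20 in the control, and the groups overlapped (-0.03 ± 0.13, SE). The 95% intervals, -0.63 to 0.07 and -0.35 to 0.28, leave out a rise of the size seen for Tecr.

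The dehydratases of the intermediate step, which are not members, were read beside them. Hacd3 was at 9.51 and 9.56 in the knockout, against 10.01 and 10.09 in the control at its brightest probe set, a log2 difference of -0.52 ± 0.12 (SE, limma adjusted p = 0.0963). Its other probe sets were lower in the knockout too, by -0.35 and -0.31. Hacd2 differed by 0.27 (-0.03 at its other probe set), Hacd1 by -0.19 (0.29 at its other probe set) and Hacd4, a dim gene with every array in the background range, by 0.26. None of the 4 passed the threshold.

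**Figure D3:**
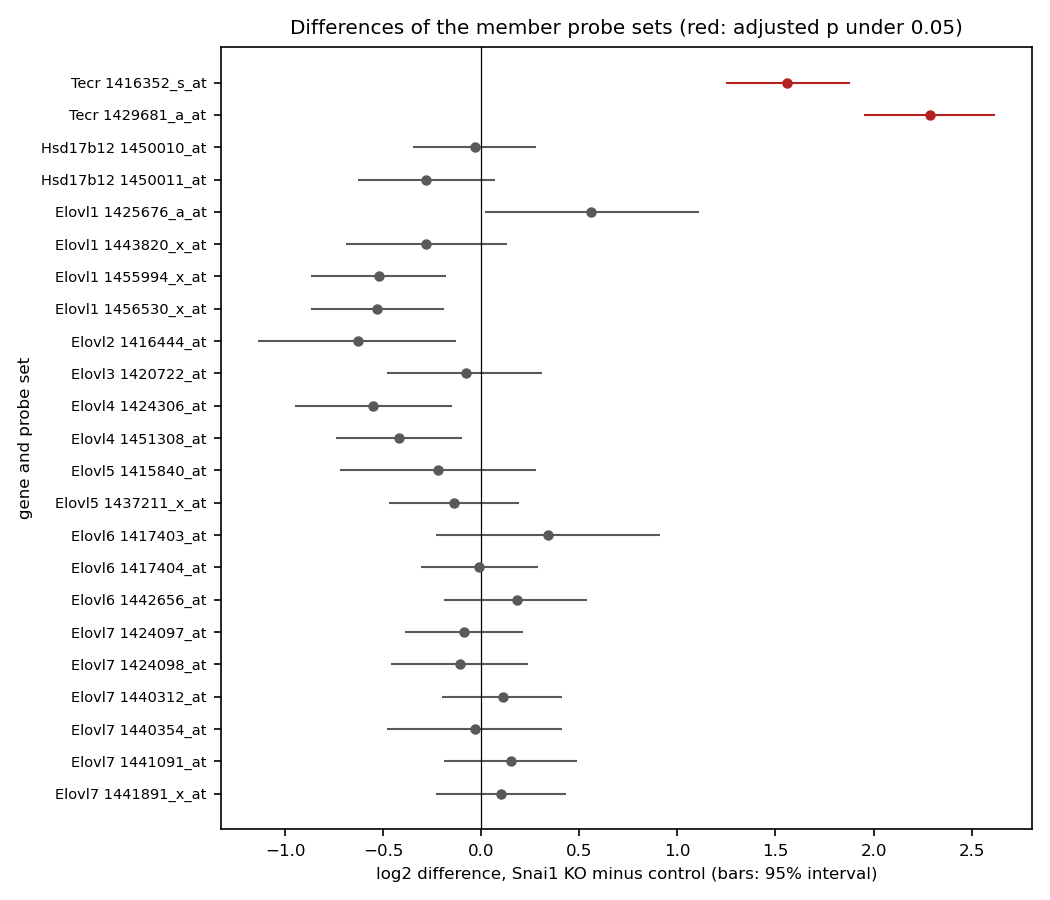
Log2 difference, knockout minus control, of each member probe set with its 95% interval from limma's moderated standard error, in red where the adjusted p was under 0.05. The intervals of the Tecr probe sets start at 1.25 and 1.95, and those of the other genes end at 1.11 or below.

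Elovl1 lengthens saturated and monounsaturated very-long-chain acyl-CoAs for sphingolipids, and its probe sets pointed in opposite directions. The brightest, 1456530_x_at, stood at 8.37 and 8.14 in the knockout, against 8.82 and 8.75 in the control (-0.53 ± 0.14, SE). A near twin, 1455994_x_at, stood at 8.26 and 8.0 in the knockout, against 8.65 on both control arrays (-0.52 ± 0.14, SE). In both, the knockout arrays were lower without overlap. The suffix x marks probe sets in which some probes also match unrelated sequence.

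The probe set 1425676_a_at of Elovl1 lay the other way, at 6.90 and 6.27 in the knockout, against 5.93 and 6.11 in the control (0.56 ± 0.22, SE). Here the knockout arrays were higher without overlap, though they differed from each other by more than knockout replicate 2 differed from the controls. The within-array gap between this probe set and the brightest one was -1.47 and -1.87 in the knockout, against -2.89 and -2.64 in the control, a difference of 1.10. A direction for Elovl1 as a gene therefore depends on the probe set, and the remaining one, 1443820_x_at, lay within the background range on all arrays.

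Elovl4 makes the ultra-long chains of retina and skin, and both of its probe sets were lower in the knockout. The brighter, 1424306_at, stood at 6.42 and 6.19 in the knockout, against 6.71 and 7.0 in the control (-0.55 ± 0.16, SE). The dimmer, 1451308_at, stood at 5.48 and 5.45 in the knockout, against 5.97 and 5.80 in the control (-0.42 ± 0.13, SE). The groups did not overlap in either, but neither passed the threshold.

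Elovl2 and Elovl5 lengthen polyunsaturated fatty acids, Elovl2 being the enzyme of the path to docosahexaenoic acid. Elovl2 was dim, at 5.32 and 4.78 in the knockout, against 5.79 and 5.57 in the control, and 1 knockout array stood at the edge of the background range (-0.63 ± 0.21, SE). Elovl5 was bright at both probe sets. Its 1437211_x_at stood at 11.04 and 10.83 in the knockout, against 11.09 and 11.06 in the control (-0.14 ± 0.14, SE). Its 1415840_at stood at 10.81 and 10.25 in the knockout, against 10.67 and 10.83 in the control (-0.22 ± 0.20, SE), so that knockout replicate 2 alone was low and the groups overlapped.

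Elovl6 lengthens palmitate to stearate and is a classical target of SREBP-1c. The brightest probe set, 1417404_at, was level over all arrays, at 10.12 and 10.03 in the knockout, against 10.10 and 10.07 in the control (-0.01 ± 0.12, SE, 95% interval -0.31 to 0.29). The second, 1417403_at, stood at 8.98 and 8.79 in the knockout, against 8.88 and 8.20 in the control, where control replicate 2 was low (0.34 ± 0.23, SE). The groups overlapped in both, and 1442656_at lay within the background range.

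Elovl7 and Elovl3 act on saturated and monounsaturated chains, Elovl3 mainly in skin and brown fat. Elovl7 had 6 probe sets, whose differences ran from -0.11 to 0.15, and none passed. The brightest, 1441891_x_at, stood at 6.48 and 6.35 in the knockout, against 6.40 and 6.22 in the control, and 2 of the 6 lay within the background range on all arrays. The only Elovl3 probe set was at 3.98 and 4.09 in the knockout, against 3.94 and 4.30 in the control, within that range, so no direction is given.

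Across the members, the knockout arrays were higher without overlap at 4 probe sets, against 23.5% of all probe sets, and lower without overlap at 9, against 26.0%. The remaining 10 overlapped. At an unadjusted p of 0.05, 8 of the 23 were past the line, 6 of them outside Tecr, against 19.5% of all probe sets. The median log2 difference of the 23 was -0.08, beside -0.01 over all tested probe sets. Of the 23, 17 lay above the background range on every array and 5 lay within it on every array.

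The wider pathway was read from lists of lipid genes, each gene by its brightest probe set. Of 95 measured genes (106 listed), 0 passed the threshold in limma's fit, against 0.500% of all genes. In the same fit 25 had an unadjusted p under 0.05 (7 higher, 18 lower), against 23.2% of all genes. The median log2 difference of the 95 was -0.12, beside -0.02 over all genes. When only the brightest probe set of each gene was tested, 4.14% of all genes passed, and among the 95 there were 4, Cyb5r3 higher and Sgms1, Kdsr (named after its values were seen) and Acsl3 lower. Among all 194 probe sets of the listed genes, dimmer ones included, 4 passed in the fit over all probe sets, in 4 genes named after their values were seen, against 0.546% of all probe sets. Probe sets of Cyb5r3, of the transcription factor gene Mlx (a log2 difference of 1.0 ± 0.13, SE) and of the Golgi acyl-CoA binding protein gene Acbd3 (1.37 ± 0.17, SE) rose, and one of the arachidonate-preferring synthetase gene Acsl4 fell (-1.15 ± 0.14, SE). For Acbd3 the control arrays, at 4.76 and 4.50, lay in the background range, and its brightest probe set differed by -0.46. The brightest probe sets of Mlx and Acsl4 differed by only 0.09 and -0.19, so no direction is given for these genes.

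**Figure D4:**
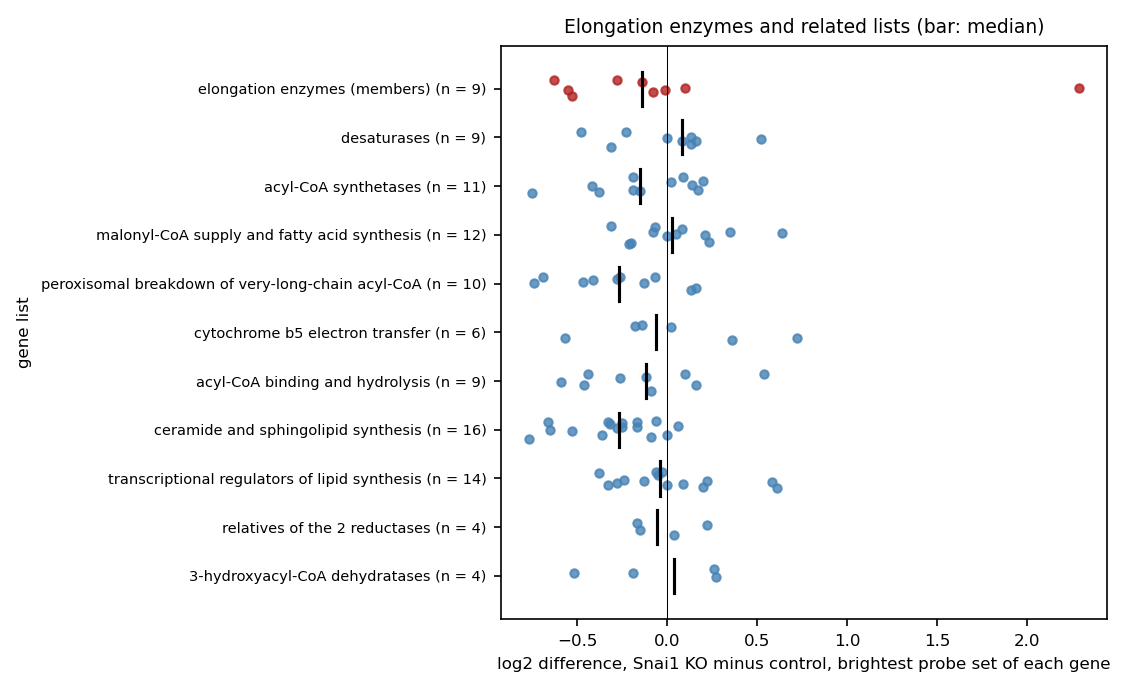
Log2 difference, knockout minus control, of the brightest probe set of each gene, with the members in red on top, the 10 related lists in blue and a black bar at each median. Tecr is the red point at 2.29, and the blue points lie between -0.77 and 0.72.

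Among 9 desaturases, which place double bonds in lipid chains, those of ceramides included, none passed. The largest difference was that of Scd3 (0.52 ± 0.17, SE, adjusted p = 0.162). Among 12 genes of malonyl-CoA supply and fatty acid synthesis, 6 had the higher and 6 the lower mean, led by the citrate carrier gene Slc25a1 at 9.45 and 9.19 in the knockout, against 8.64 and 8.72 in the control (0.64 ± 0.14, SE, adjusted p = 0.0862). Neither list had a median beyond 0.08.

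The cytochrome b5 chain passes electrons to desaturases, and its reductase gene Cyb5r3 stood at 10.49 and 10.28 in the knockout, against 9.57 and 9.76 in the control (0.72 ± 0.15, SE, adjusted p = 0.0746). Its other probe sets were also higher in the knockout, by 1.18, 1.31 and 0.20, and the one at 1.18 passed (adjusted p = 0.0487). Of the 6 genes of this list 3 had the higher and 3 the lower mean.

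In several further groups most genes had the lower mean, as did 53.4% of all genes, and a pair of these groups is given first. Of 16 genes of ceramide and sphingolipid synthesis, 14 had the lower mean in the knockout, with a median of -0.27, and the sphingomyelin synthase gene Sgms1 stood at 8.25 and 8.07 in the knockout, against 8.91 and 8.95 in the control (-0.77 ± 0.13, SE, adjusted p = 0.0618). Other probe sets of Sgms1 differed by -0.75, -0.20 and 0.29. Of 10 genes for peroxisomal breakdown of very long chains, 8 had the lower mean, with a median of -0.27, and the thiolase gene Acaa1b had the largest measured difference (-0.74 ± 0.21, SE, adjusted p = 0.130), although both of its knockout arrays lay within the background range. No gene of either list passed. Every array lay within the background range for Sptssb and Cers3 of the first list, both with the lower mean. The same held for Acox2, Decr2 and Ehhadh (lower mean) and Abcd2 (higher mean) of the second. These genes in the background range were named after their values were seen, and they are kept in the counts. With the gene span trend removed, the counts of lower means were again 14 of 16 and 8 of 10, with medians of -0.20 and -0.21. The list of acyl-CoA binding and hydrolysis then had a median of -0.22, and all genes one of -0.02. The 3' to 5' gaps of Actb and Gapdh given above separate the same arrays, and their part in these counts was not tested.

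Of 11 acyl-CoA synthetases 6 had the lower mean and none passed. Acsl3 was lower at all of its probe sets, by -0.75, -0.72 and -0.84 (adjusted p = 0.0746 for the brightest). Of 9 genes for acyl-CoA binding and hydrolysis 6 had the lower mean. The largest difference was that of Acbd5, a peroxisomal acyl-CoA binding protein (-0.59 ± 0.14, SE, adjusted p = 0.0899). Of 14 regulators of lipid synthesis 8 had the lower mean. The largest difference there was that of Nr1h3, the LXR alpha receptor, which was dim (0.61 ± 0.22, SE, adjusted p = 0.203). Among 4 relatives of the reductases Srd5a3, a polyprenol reductase, led with 0.22 ± 0.22 (SE) at its brightest probe set, while its others differed by 0.44, -0.10, -0.09 and -0.43, so no direction is given. Tecrl, named after its values were seen, lay within the background range.

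The knocked-out gene itself stood at 3.79 and 4.04 in the knockout, against 4.41 and 4.69 in the control, inside the background range, and did not check the labels. The 8 ES cell markers fixed for these arrays were all above that range, with mean levels of 11.84 and 11.71 in the knockout, against 11.16 and 11.23 in the control, and 1 of them, Utf1 (named after its values were seen), passed as higher. Of 17 measured markers of fibroblasts, the usual feeder cells, 1 was within the range and 0 passed. Their mean level was 7.40 and 6.77 in the knockout, against 7.63 and 7.03 in the control, so it differed more between replicates than between groups. The summed log2 level of the fibroblast list ran from 115.1 to 125.9 in the knockout and from 119.6 to 129.7 in the control, and its part in the values of the members was not tested. In such bulk RNA, fewer cells of a type and less RNA per cell cannot be told apart.

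The Tecr difference kept its sign and most of its size under every setting tried. The mean of both Tecr probe sets differed by 1.92. The Tecr difference lay between 2.18 and 2.40 for 1429681_a_at itself and between 1.49 and 1.64 for 1416352_s_at. Its call was lost without certain arrays: 0 of the 23 member probe sets, and 0 of all 45037, passed in limma's fit when either knockout array or control replicate 2 was left out, where 8 (knockout replicate 1), 3 (knockout replicate 2) and 6 (control replicate 2) of the 23 had an unadjusted p under 0.05.

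**Figure D5:**
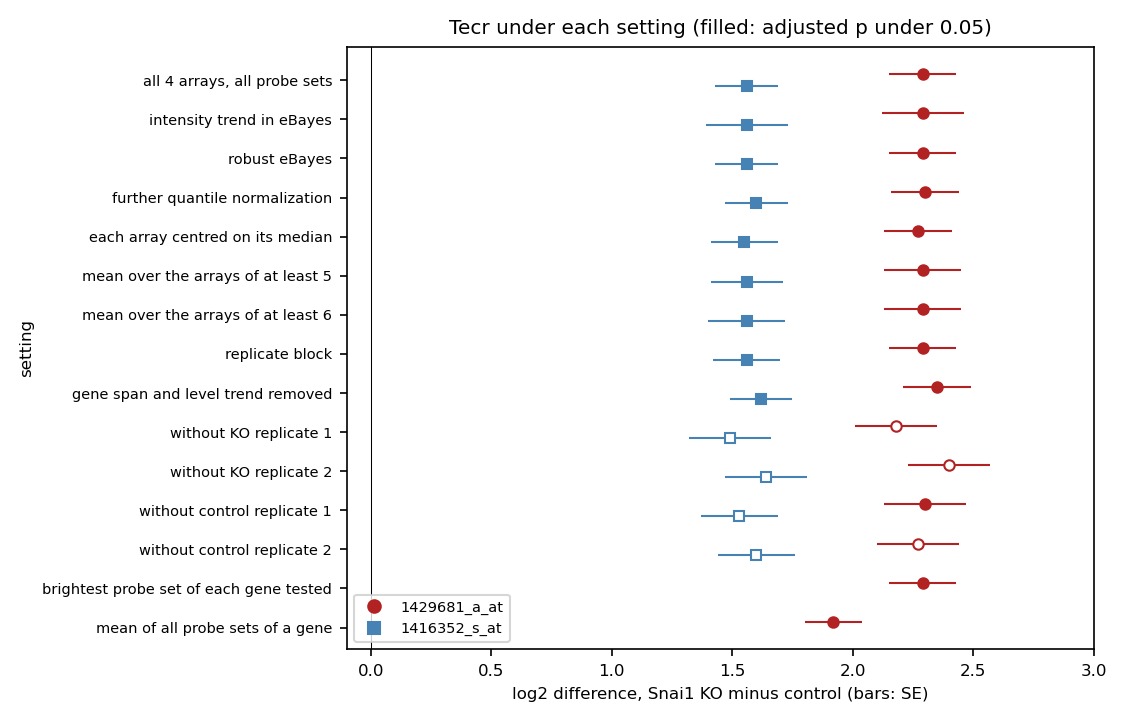
Log2 difference of both Tecr probe sets, knockout minus control, with its standard error, under each setting, filled where the adjusted p was under 0.05. All values lie between 1.49 and 2.40, and the open symbols belong to settings with 1 array left out. The mean of both probe sets, at 1.92, is drawn with the symbol of 1429681_a_at.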

How the data were processed

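RNA from 4 ES cell samples was labelled from the 3' end and hybridised to 1 array each. The authors deposited 1 log2 value per probe set and array, and the submitters' processing notes name RMA (background correction, quantile normalization, probe set summary) and limma, without versions. RMA equalises array distributions and can hide a shift common to most genes. Array medians lay between 4.91 and 4.95, so values were used as deposited. No genome build is named in the labels.

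Gene names came from GEO's annotation of the platform, with symbols checked by gene ID against RefSeq (0 changed). After 64 Affymetrix control probe sets were set aside, 45037 remained, of which 34945 had 1 gene symbol, 932 several and 9160 none. Knockout was compared with control in limma 3.58.1 (lmFit, eBayes; R 4.3.3) over all 4 arrays without covariates, with 2 residual and 4.11 prior degrees of freedom and Benjamini-Hochberg adjustment over all 45037 probe sets (threshold 0.05, two-sided). The fit was tested on simulated data, which checks the code and not the calls reported here. A difference short of the threshold is not thereby shown to be absent. Each difference is the knockout mean less the control mean (log2). Background was the range of 24 Bacillus control probe sets. The number of arrays limits the precision.

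The members and lists were chosen with earlier results of these data known. Named beside the members were Hacd1 to Hacd4, Snai1, the 5 genes most like Tecr among those at a mean of 6 or more, and of each lipid list the genes past the threshold (up to 4) or else the 1 with the largest difference. Genes named outside this rule are marked in the text. Listed genes without a probe set of their own were left out. Alternatives were an intensity trend or robust fit, further quantile normalization, median centring, dim filters at 5 and 6, 1 probe set or the mean of all probe sets per gene, a replicate block, removal of a loess trend with gene span and level (span 0.3), and leaving out each array.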

Additional observations from a re-analysis of the deposited data

How the results depend on the processing

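Both Tecr probe sets passed in limma's fit, and no other member probe set passed, under an intensity trend or robust fit, further quantile normalization, median centring, dim filters at 5 and 6, the replicate block and removal of the gene span trend. With 1 probe set or the mean of all probe sets per gene, the member count was 1 of 9 genes (Tecr). With 1 array left out, it ran from 0 to 1, with the spread of the lone array taken from the other group. It was 1 without control replicate 1, and 0 without either knockout array or control replicate 2. Tecr's adjusted p over all alternatives ran from 0.00474 to 0.312. The count of all probe sets, 246 in the reported fit, was 568 with further quantile normalization, 507 with the filter at 6, 754 with the brightest probe set per gene, 518 with the span trend removed and 0 to 173 with 1 array left out. The causes were not tested. Fewer features were tested with 1 probe set per gene (18193), with the filter at 6 (16281) and with the span trend removed (34741). The last setting holds only probe sets with a known span. Fewer were also tested with the mean of all probe sets (18193 genes) and the filter at 5 (22099), where 321 and 287 passed. The count of lipid pathway genes, 0 in the reported fit, was 4 with the brightest probe set per gene, 2 with the mean of all probe sets and 2 with the replicate block, and 0 in the other alternatives. With the replicate block 1536 probe sets passed. The replicate numbers share no stated culture or day, and the same-numbered arrays' deviations correlated at 0.114 over probe sets. The mean fibroblast marker level was higher in replicate 1 of both groups, 7.40 against 6.77 in knockout, 7.63 against 7.03 in control. The part of this in the count of 1536 was not tested. The 1417404_at probe set of Elovl6 changed sign in 5 of 14 alternatives and 1450010_at of Hsd17b12 in 4 of 12, and no called member did.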
